A study of Homo sapiens with 8 samples.

Results

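Potassium channel genes were taken as every gene of the deposited table whose symbol starts with KCN followed by a capital letter, which gave 91 of 17504 genes. By symbol, 39 of them encode voltage-gated subunits, 16 inward rectifier subunits, 12 two-pore subunits and 7 subunits gated by intracellular calcium or sodium. A further 16 encode auxiliary subunits, and 1, KCNRG, encodes a cytosolic regulator of channel assembly. The members were measured by bulk RNA sequencing in day 30 brain organoids, with 3 libraries of FABP7 knockdown organoids (labelled FKD) set against 3 libraries of control organoids (labelled FCT, genotype WT). Both groups were grown from the human induced pluripotent stem cell line IMR90-4, each from 1 derivative of it, so any other difference between the derivatives cannot be told apart from the knockdown. The knockdown method is not given in the sources used here. Whether the replicates are separate cultures is not labelled, so the p-values cover the spread among the libraries alone, possibly a technical one. The series' design text names adipogenic differentiation, whereas every sample is labelled as brain organoid.

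Potassium channels let potassium ions leave or enter a cell along their gradient, and so set the resting potential and end the action potential. Voltage-gated subunits assemble as tetramers that open on depolarisation, and inward rectifiers pass current mainly near rest and include channels opened by G proteins or closed by ATP. Two-pore subunits carry the background leak, and calcium-activated channels couple the membrane potential to intracellular calcium. Auxiliary subunits change the gating or the surface level of the pore-forming subunits. In the developing brain, neurons are known to gain voltage-gated channels as they mature, and radial glia and astrocytes to rely on inward rectifiers.

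Expected counts summed to 15063815 to 15360145 in knockdown libraries and to 13424959 to 15675888 in control libraries. Levels are given as CPM, counts relative to the library total after TMM scaling, except where TPM, the unit that also corrects for transcript length, is named. A gene was called where edgeR's quasi-likelihood test gave a Benjamini-Hochberg adjusted p of at most 0.05 over all 13468 genes tested. FABP7 itself had 0.954, 1.01 and 1.06 CPM in knockdown libraries, against 196, 192 and 192 CPM in control libraries (log2 fold change -7.57 ± 0.09 SE, adjusted p = 6.04e-26). All 12 listed neuron markers were lower in knockdown organoids (summed level 2243 to 2281 TPM in knockdown, 3436 to 3525 TPM in control), and all 7 listed markers of dividing cells were higher (556 to 591 TPM in knockdown, 313 to 327 TPM in control). As background, 26.4% of all genes tested were higher and 25.3% lower. Radial glia markers were mixed, with 3 of 8 higher and 4 lower (1180 to 1218 TPM in knockdown, 1324 to 1384 TPM in control). Their median log2 fold change from counts was -0.04. On log2(TPM + 1) the median over all genes was itself -0.16, so the lower TPM sums alone do not show a fall in these markers. In bulk libraries fewer cells of a type and less RNA per cell cannot be told apart, and the part of cell makeup in the channel results was not tested.

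Of the 91 channel genes, 60 had enough counts to be tested. Among them 7 were higher and 21 were lower in knockdown organoids, which is 28 genes or 46.7%. Over all genes tested 51.7% were called, 26.4% as higher and 25.3% as lower, so the channel genes were called about as often as other genes. The median log2 fold change of the 60 genes was -0.17, against -0.01 over all genes tested, and 40 of the 60 values lay below 0. The knockdown libraries all lay above the control libraries for 10 of the 60 genes and all below for 23, where the background of genes with no overlap was 57.3%, 29.1% with knockdown above and 28.2% with knockdown below. A stricter test against a change of 1.5-fold called 2 channel genes as higher, KCNA1 and KCNJ8, and 3 as lower, among them KCNIP4 and KCNC2. That test called 4.69% of all genes, 2.13% as higher and 2.55% as lower. Of the tested members 1 passed the low-count filter through the control libraries alone, so its groups had to differ.

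**Figure D1:**
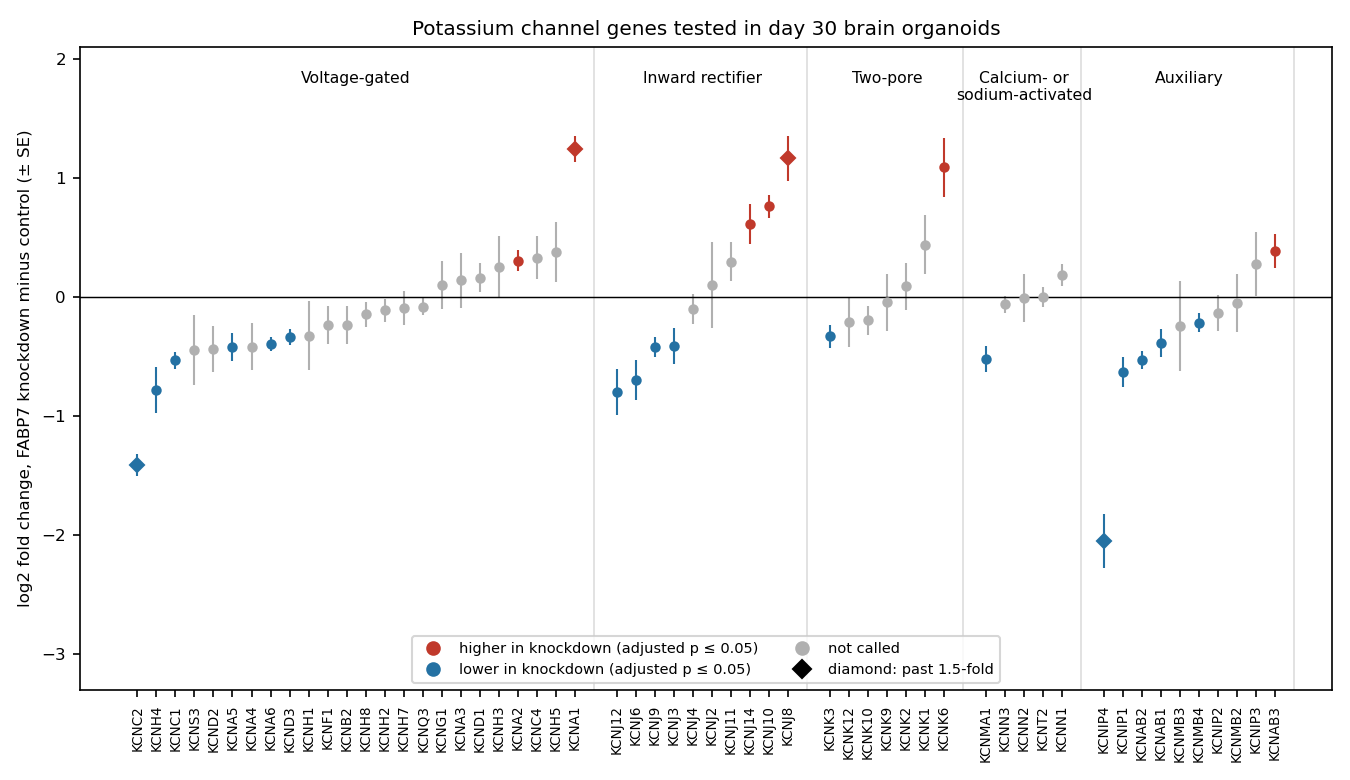
Log2 fold change (FABP7 knockdown minus control, ± SE) of 56 of the 60 tested potassium channel genes, ordered within each class. Of those drawn, 7 were higher (red) and 17 lower (blue) in knockdown organoids, and diamonds mark 4 genes past 1.5-fold.

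The remaining 31 members were too low to test, with at most 60 counts over the 6 libraries and at most 15 in any library. None was at 0 in every library. The untested voltage-gated genes were KCNA7, KCNG2, KCNG3, KCNG4, KCNH6, KCNQ1, KCNQ5, KCNS1, KCNS2, KCNV1 and KCNV2. The untested inward rectifiers were KCNJ1, KCNJ5, KCNJ13, KCNJ15, KCNJ16 and KCNJ18, and the untested two-pore genes were KCNK4, KCNK5, KCNK7, KCNK13 and KCNK15. KCNN4 and KCNT1 of the calcium- and sodium-activated class, KCNMB1, all 5 KCNE genes and KCNRG also went untested. The KCNE genes encode small single-pass subunits best known from heart and epithelia.

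Most members were expressed at a low level. Per length, 2 members averaged above 10 TPM over the 6 libraries, among them KCNH2 at 14.3 TPM, while 47 members averaged 1 to 10 TPM and 42 averaged under 1 TPM. Summed over the 39 voltage-gated genes, the level was 104.65 to 109.98 TPM in knockdown libraries and 133.55 to 139.55 TPM in control libraries. The 16 auxiliary genes summed to 29.9 to 32.1 TPM in knockdown and 44.4 to 48.1 TPM in control. The 12 two-pore genes summed to 8.8 to 9.17 TPM in knockdown and 10.6 to 11.2 TPM in control. The calcium- and sodium-activated genes summed to 19.0 to 21.0 TPM in knockdown and 21.1 to 22.6 TPM in control. In each of these 4 classes every knockdown library lay below every control library, whereas the inward rectifier ranges overlapped, at 24.92 to 25.86 TPM in knockdown and 25.84 to 29.29 TPM in control. The TPM scale carries a shift of its own, since the median log2 fold change over all genes was -0.16 on log2(TPM + 1), against -0.01 on the CPM scale. Lower TPM sums alone therefore do not show a fall of a class. From counts the median was -0.25 for voltage-gated and -0.23 for auxiliary genes. It was -0.04 for two-pore, -0.01 for calcium- and sodium-activated and 0.00 for inward rectifier genes.

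**Figure D2:**
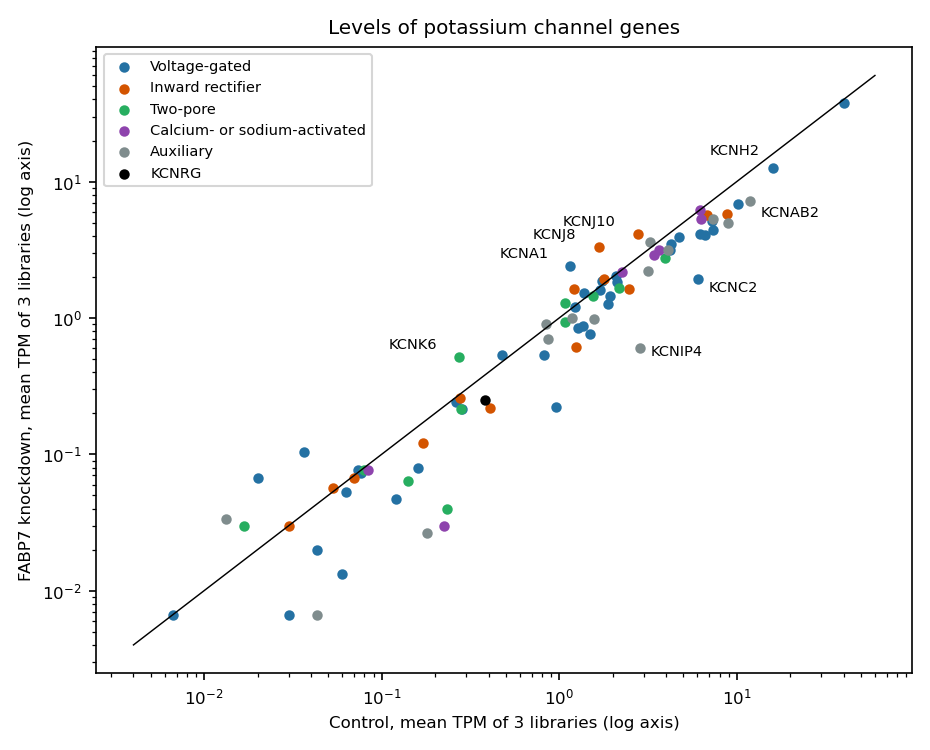
Mean TPM of each potassium channel gene in FABP7 knockdown and control libraries on log axes, coloured by class, with 86 genes plotted, 5 at 0 TPM in a group left out and a line at equal levels. Most genes lie near the line, while KCNC2 and KCNIP4 lie below it, at 1.92 and 0.603 TPM in knockdown against 6.05 and 2.87 TPM in control.

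Voltage-gated genes were mostly lower where they were called: 10 of 28 tested genes were lower and 2 higher, with a median log2 fold change of -0.25. In share, 35.7% were lower and 7.14% higher, against 25.3% and 26.4% over all genes tested. Called in either direction were 42.9%, against 51.7% over all genes. KCNC2 and KCNC1 encode subunits that give fast-spiking neurons their brief action potentials, and both were lower, while KCNC4 was not called (0.33, adjusted p = 0.131). KCNC2 had 6.88, 8.17 and 7.71 CPM in knockdown libraries, against 20.2, 20.2 and 20.2 CPM in control libraries. Every knockdown library lay below every control library. The controls, with 322, 279 and 299 counts, lay closer together in CPM than counting error alone usually gives, so their closeness is no measure of precision. Its mean of 7.59 ± 0.652 CPM in knockdown against 20.2 ± 0.0151 CPM in control (SD, n = 3 each) was 2.66-fold lower, with a log2 fold change of -1.41 ± 0.09 (SE, adjusted p = 2e-11). It was also the smallest p among the members. KCNC1 had 18.7, 17.8 and 18.4 CPM in knockdown libraries, against 27.03, 26.9 and 25.5 CPM in control libraries, again without overlap (-0.53 ± 0.07, adjusted p = 2.08e-06).

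Since KCNC2 fell the most clearly, the 250 bases before its annotated start (RefSeq, GRCh38.p14, chr12:75209840-75210089, minus strand) are shown, and beside them the same window of KCNJ8 (chr12:21774707-21774956, minus strand), the inward rectifier that rose past 1.5-fold. Both genes lie on chromosome 12, KCNC2 at 75040078 to 75209839 and KCNJ8 at 21764955 to 21774706. Capitals mark the GC box GGGCGG or its reverse complement.
KCNC2: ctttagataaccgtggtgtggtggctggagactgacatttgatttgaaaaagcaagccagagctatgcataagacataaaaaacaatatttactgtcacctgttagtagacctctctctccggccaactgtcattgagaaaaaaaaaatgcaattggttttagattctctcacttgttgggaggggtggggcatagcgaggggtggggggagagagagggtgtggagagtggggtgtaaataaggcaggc
KCNJ8: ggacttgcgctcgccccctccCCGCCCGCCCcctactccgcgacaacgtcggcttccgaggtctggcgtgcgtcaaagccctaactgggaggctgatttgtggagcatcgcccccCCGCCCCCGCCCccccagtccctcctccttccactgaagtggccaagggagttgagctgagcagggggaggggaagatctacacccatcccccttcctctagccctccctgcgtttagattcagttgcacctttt
The KCNC2 window has 46% G or C, 3 CpG and no GC box, while the KCNJ8 window has 64.8% G or C, 15 CpG and 4 GC boxes, of which the first pair share bases. Neither holds the TATA box TATAAA on either strand, and the E-box CANNTG occurs 5 times in the KCNC2 window and 1 time in that of KCNJ8. Over 35116 RefSeq windows of this length the median is 58% G or C and 11 CpG, and 42.6% hold the GC box, 10.7% the TATA box and 61.8% the E-box. Of the 91 members 68 had a window. KCNA1 had no entry.

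The KCNA genes, whose subunits sit along axons and near their initial segment, moved in both directions. KCNA1 had 13.6, 12.9 and 15.3 CPM in knockdown libraries, against 5.58, 5.79 and 6.27 CPM in control libraries. All 3 knockdown libraries were above all 3 control libraries. The gene was 2.37-fold higher, at a mean of 13.9 ± 1.22 CPM in knockdown against 5.88 ± 0.355 CPM in control (SD, n = 3 each), with a log2 fold change of 1.25 ± 0.11 (SE, adjusted p = 3.07e-09). KCNA6 had 28.6, 28.7 and 28.9 CPM in knockdown libraries, against 37.6, 37.3 and 38.2 CPM in control libraries. The spread within each group was under 1 CPM, narrower than counting error alone usually gives at 419 to 599 counts. The groups lay apart (-0.39 ± 0.06, adjusted p = 1.42e-05). Of the other KCNA genes, chosen for mention after their values were seen, KCNA5 was lower (-0.42, adjusted p = 0.00392), KCNA2 was higher (0.30, adjusted p = 0.00612) and KCNA4 was not called (-0.41, adjusted p = 0.0787).

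KCNA6, KCNA1 and KCNA5 lie side by side on chromosome 12 and did not move together. On GRCh38.p14 KCNA6 spans 4809334 to 4851112, KCNA1 spans 4909905 to 4918256 and KCNA5 spans 5043879 to 5046788, with gaps of 58.8 and 125.6 kb. The middle gene was higher in knockdown and the genes on both sides of it were lower. The 78 tested genes within 5 Mb of KCNA1 had a median log2 fold change of 0.01.

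KCNB2, a delayed rectifier of neurons, was not called (-0.23, adjusted p = 0.236). Among the KCND genes, which carry the fast inactivating A-type current, KCND3 was lower (-0.33, adjusted p = 0.000196), KCND2 missed the threshold (-0.43, adjusted p = 0.0632) and KCND1 was not called (0.16, adjusted p = 0.281). These KCND genes and KCNB2 fall outside the rule for naming and were picked after their values were seen.

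KCNQ3, a subunit of the M-current channel that damps repetitive firing, was at 28.6 ± 1.55 CPM in knockdown and 30.2 ± 2.36 CPM in control (SD, n = 3 each) and was not called (-0.08, adjusted p = 0.378).

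The KCNH genes encode ether-a-go-go type channels, and 1 of 7 tested was called (14.3%, against 51.7% over all genes tested). KCNH2, the gene of the cardiac repolarising current that also runs in neurons, had 27.5, 30.5 and 34.4 CPM in knockdown libraries, against 34.1, 37.2 and 28.7 CPM in control libraries. The ranges of the groups overlapped widely (-0.11 ± 0.09, adjusted p = 0.336). Without control replicate 3 the gene was called as lower (-0.21, adjusted p = 0.0285), and leaving out 1 library at a time gave -0.21 to -0.035. KCNH4, chosen after its value was seen, was the called member (-0.78, adjusted p = 0.00199) at 1.996 ± 0.461 CPM in knockdown and 3.44 ± 0.155 CPM in control (SD, n = 3 each). The electrically silent subunits KCNF, KCNG, KCNS and KCNV, which act only together with KCNB subunits, had 3 of 10 genes tested. KCNF1 (-0.23, adjusted p = 0.226), KCNG1 (0.10, adjusted p = 0.702) and KCNS3 (-0.44, adjusted p = 0.217) were not called.

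**Figure D3:**
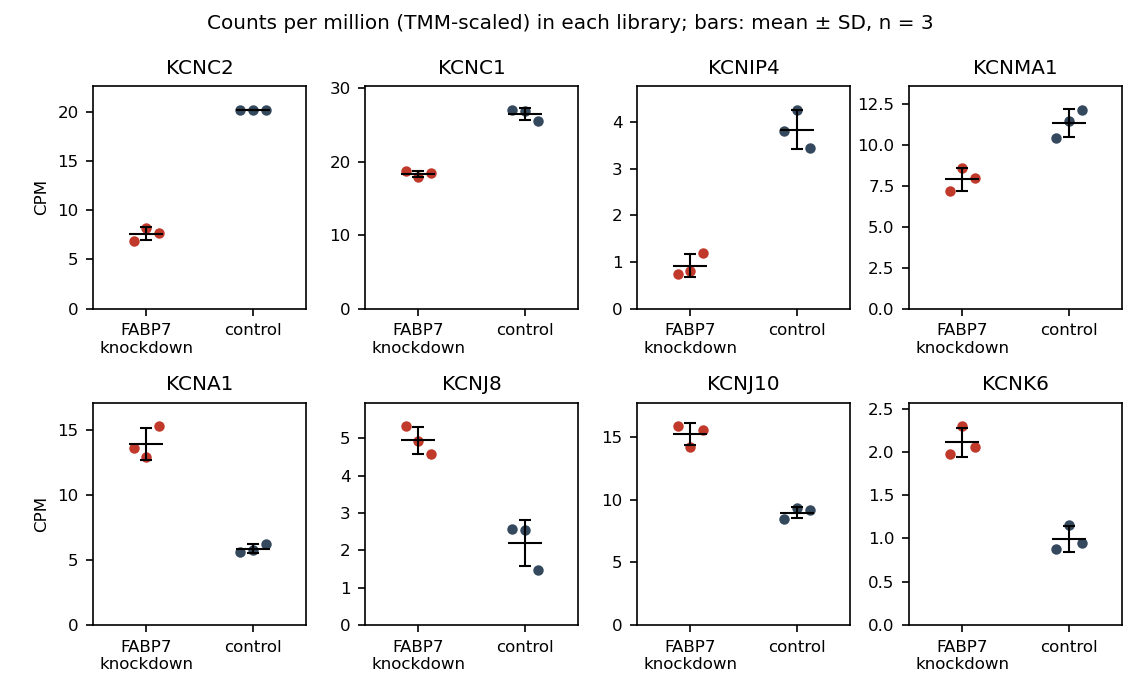
CPM in each library for 8 potassium channel genes, knockdown left of control, with points for libraries and bars for the mean ± SD (n = 3). KCNC2, KCNC1, KCNIP4 and KCNMA1 lie lower in all 3 knockdown libraries, and KCNA1, KCNJ8, KCNJ10 and KCNK6 lie higher in all 3.

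Inward rectifiers were called in both directions, with 3 of 10 tested genes higher and 4 lower, and had a median log2 fold change of 0.00. Over all genes tested 26.4% were higher and 25.3% lower. KCNJ10, the channel through which astrocytes and other glia take up potassium, had 15.9, 14.2 and 15.6 CPM in knockdown libraries, against 8.47, 9.34 and 9.17 CPM in control libraries. The groups lay well apart, and the gene was 1.70-fold higher (0.76 ± 0.10, adjusted p = 6.25e-07), without passing the test against 1.5-fold (adjusted p = 0.172). Beside this, the astrocyte markers summed to 6.21 to 7.52 TPM in knockdown and 3.35 to 3.47 TPM in control. Of those 5 markers only GJA1, higher, and AQP4, lower, were called, and GFAP stayed under 0.1 TPM in every library. The part of astrocyte content in the KCNJ10 value was not tested.

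KCNJ8, the pore subunit of the ATP-sensitive channel of vascular mural cells, had 5.32, 4.93 and 4.59 CPM in knockdown libraries, against 2.57, 2.53 and 1.48 CPM in control libraries. Every knockdown library was higher, and control replicate 3 was the lowest of all. The rise was 2.24-fold (1.17 ± 0.19, adjusted p = 1.76e-05), and it passed the test against 1.5-fold (adjusted p = 0.0151) except without knockdown replicate 1 or without control replicate 3. ABCC9, its sulfonylurea receptor partner, was at 2.70 ± 0.157 CPM in knockdown and 2.72 ± 0.390 CPM in control (SD, n = 3 each). The 6 listed mural markers summed to 7.37 to 8.28 TPM in knockdown and 7.88 to 10.5 TPM in control. Of them 2 were higher and 2 lower, beside 26.4% and 25.3% of all genes tested. MYH11 stayed under 0.1 TPM in every library. The part of mural cells in the KCNJ8 value was not tested. KCNJ11, the pore of the ATP-sensitive channel of pancreatic beta cells and neurons, was not called (0.30, adjusted p = 0.132).

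The subunits of G protein-gated inward rectifiers, through which neurotransmitters slow firing, are KCNJ3, KCNJ5, KCNJ6 and KCNJ9, a grouping made with the values known. KCNJ9 had 19.1, 17.1 and 16.4 CPM in knockdown libraries, against 24.6, 24.8 and 20.8 CPM in control libraries (-0.42 ± 0.09, adjusted p = 0.000295). The knockdown libraries were all lower, though control replicate 3 came close to them. KCNJ6 had 3.27, 2.57 and 3.92 CPM in knockdown libraries, against 4.83, 4.92 and 6.07 CPM in control libraries (-0.69 ± 0.17, adjusted p = 0.00151). Its groups did not overlap either. KCNJ3 was called as lower near the threshold (-0.41, adjusted p = 0.0283), a call lost without knockdown replicate 1 (-0.21, adjusted p = 0.238) or control replicate 1 (-0.39, adjusted p = 0.0675), and KCNJ5 was too low to test.

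KCNJ10 and KCNJ9 are a second case of neighbours that moved apart. They lie 11.4 kb from each other on chromosome 1, KCNJ10 at 160037467 to 160070160 and KCNJ9 at 160081538 to 160090563 (GRCh38.p14). KCNJ10 was higher and KCNJ9 lower in knockdown organoids, while the 111 tested genes within 5 Mb had a median log2 fold change of 0.01.

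KCNJ12, a strong inward rectifier best known from heart and skeletal muscle, had 2.45, 2.77 and 1.60 CPM in knockdown libraries, against 3.76, 4.20 and 3.91 CPM in control libraries. It was lower without overlap (-0.80 ± 0.19, adjusted p = 0.00141), but KCNJ18 is a near-identical copy, so the split of reads between them is uncertain. KCNJ14 had 3.75, 4.79 and 4.52 CPM in knockdown libraries, against 3.07, 2.82 and 2.63 CPM in control libraries (0.61 ± 0.17, adjusted p = 0.00401). All knockdown libraries were higher, but the gene overlaps GRWD1, and with the strand use of the counting not given their reads may mix. KCNJ4 had 7.36, 6.42 and 7.78 CPM in knockdown libraries, against 7.59, 8.40 and 7.15 CPM in control libraries. Those groups overlapped and the gene was not called (-0.10, adjusted p = 0.523).

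Two-pore genes gave 1 higher and 1 lower call among 7 tested, with a median log2 fold change of -0.04. That is 28.6% called, against 51.7% over all genes tested. KCNK6, a weakly rectifying leak subunit, had 1.98, 2.30 and 2.06 CPM in knockdown libraries, against 0.878, 1.16 and 0.944 CPM in control libraries. Its level was low but higher in every knockdown library, by 2.13-fold (1.09 ± 0.25, adjusted p = 0.000757, or 0.121 against 1.5-fold). It overlaps YIF1B, so its reads may mix with those of that gene. KCNK3, an acid-sensitive leak channel, had 12.1, 11.7 and 12.9 CPM in knockdown libraries, against 14.8, 17.4 and 13.9 CPM in control libraries. The knockdown libraries were all lower, by a modest margin (-0.33 ± 0.10, adjusted p = 0.00738). KCNK10 (-0.19, adjusted p = 0.188) and KCNK2 (0.09, adjusted p = 0.732), both mechanically gated leak channels, were not called. Without control replicate 2 KCNK10 was called as lower (-0.31, adjusted p = 0.0323), and leaving out 1 library at a time gave it -0.31 to -0.11.

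Of the calcium- and sodium-activated class 1 of 5 tested genes was called (20%, against 51.7% over all genes tested), with a median log2 fold change of -0.01. KCNMA1, the large-conductance channel opened by calcium and depolarisation together, had 7.16, 8.58 and 7.98 CPM in knockdown libraries, against 10.4, 11.4 and 12.1 CPM in control libraries. Its groups did not overlap and it was 1.43-fold lower (-0.52 ± 0.11, adjusted p = 0.000435). Per length the values were 2.93, 3.39 and 3.09 TPM in knockdown libraries and 2.99, 4.17 and 3.75 TPM in control libraries, which overlapped, and limma on log2(TPM + 1) did not call it (adjusted p = 0.218). The small-conductance genes KCNN1, KCNN2 and KCNN3, which follow spikes with a slow hyperpolarisation, were all uncalled. KCNN1 had 15.1, 15.5 and 16.2 CPM in knockdown libraries, against 14.6, 14.4 and 12.2 CPM in control libraries (0.18 ± 0.09, adjusted p = 0.0976). The knockdown libraries were all higher, by a small margin. KCNT2, opened by sodium, had 22.1, 21.1 and 23.5 CPM in knockdown libraries, against 19.9, 22.4 and 24.4 CPM in control libraries. Its groups had nearly the same mean (0.00 ± 0.08, adjusted p = 0.977), in a stretch of chromosome 1 where tested genes within 5 Mb had a median of -0.25.

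For KCNMA1 the count and the per-length scales parted, and the deposited values imply a different transcript length in each group. A length was worked out for each gene and library from the count, the FPKM and the library total, a measure chosen after the data were seen. For KCNMA1 it was 3227, 3335 and 3442 bases in knockdown libraries, against 5268, 4130 and 4885 bases in control libraries. The implied transcript was shorter in all 3 knockdown libraries, with a log2 length ratio of -0.51 ± 0.09, which did not pass limma over all genes (adjusted p = 0.211). The background was 0.155% of 10970 genes with a length, and 0 of the 32 members with one were called, while KCNMA1, KCND3, KCNH2 and KCNMB4 were among those with an unadjusted p under 0.05. Log2 ratios of 30 other members lay between -0.06 and 0.06, and 95% of all genes lay between -0.10 and 0.07.

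**Figure D4:**
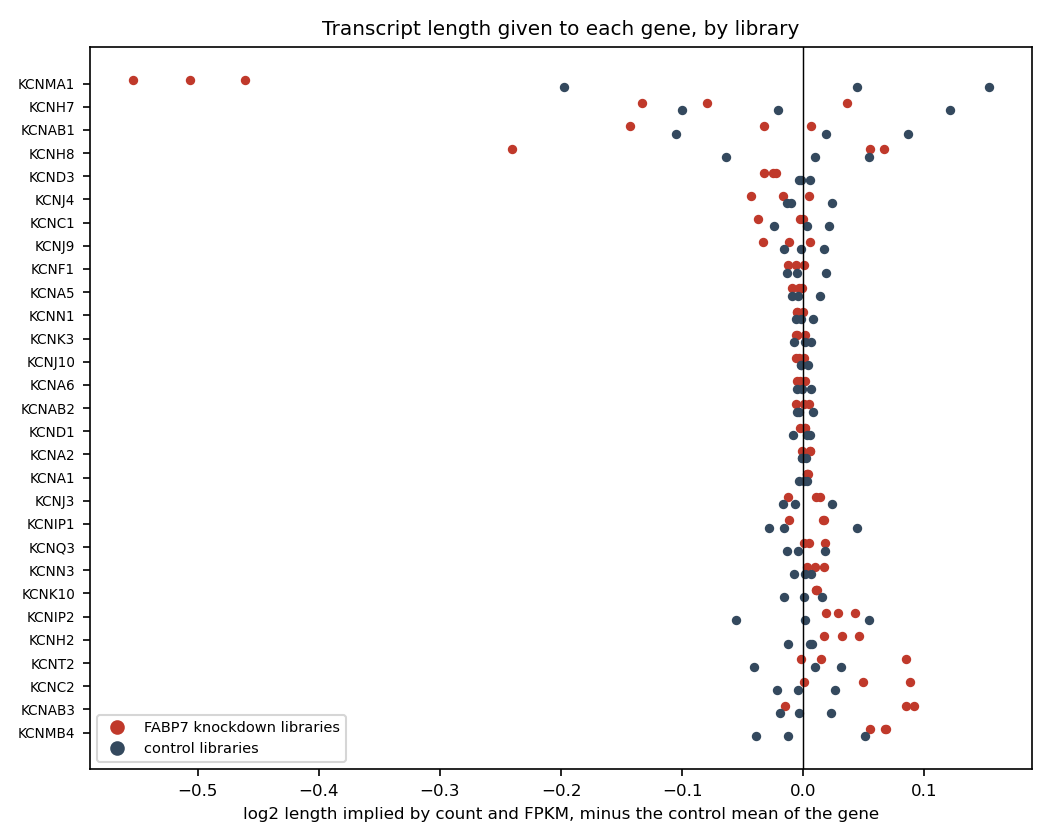
Log2 transcript length implied by the deposited count and FPKM, minus the mean of the control libraries, for 29 of the 32 potassium channel genes with enough counts; red points are knockdown and dark points control libraries. KCNMA1 has all 3 knockdown libraries left of all 3 control libraries, at a mean log2 ratio of -0.51.

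Auxiliary genes were lower in 5 of 10 tested cases and higher in 1, with a median log2 fold change of -0.23. Beside this, 25.3% of all genes tested were lower and 26.4% higher. KCNIP4, a calcium-binding partner of KCND channels, had 0.750, 0.810 and 1.197 CPM in knockdown libraries, against 3.83, 4.27 and 3.44 CPM in control libraries. No knockdown library came near a control library, and the 4.14-fold lower level was the largest change among the 60 tested members (-2.05 ± 0.23, adjusted p = 8.96e-08). The gene is very long (chromosome 4, 20728606 to 21948772), overlaps PACRGL, and has 3 annotated start windows in RefSeq. The most upstream of them (chr4:21948773-21949022, minus strand) is shown with GC boxes in capitals, since gene-level counts do not tell which start was used.
KCNIP4: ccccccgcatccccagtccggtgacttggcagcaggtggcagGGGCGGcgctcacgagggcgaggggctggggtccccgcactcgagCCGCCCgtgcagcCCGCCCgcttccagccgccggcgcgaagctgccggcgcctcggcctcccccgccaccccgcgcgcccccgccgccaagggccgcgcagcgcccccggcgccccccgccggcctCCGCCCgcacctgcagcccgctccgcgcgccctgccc
This window has 83.6% G or C, 38 CpG and 4 GC boxes. The windows at 21697741 to 21697990 and 20984071 to 20984320 have 54.8% and 62.8% G or C, 7 and 17 CpG, and no GC box.

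KCNIP1, of the same family, had 7.29, 5.67 and 6.45 CPM in knockdown libraries, against 9.41, 9.55 and 11.1 CPM in control libraries. It was lower without overlap (-0.63 ± 0.12, adjusted p = 0.000161), though it overlaps KCNMB1. KCNAB2, a cytosolic subunit that steers KCNA channels to the axon, had 20.2, 19.9 and 18.5 CPM in knockdown libraries, against 27.5, 30.3 and 26.8 CPM in control libraries. The groups lay apart (-0.53 ± 0.08, adjusted p = 3.38e-06), and the 98 tested genes within 5 Mb on chromosome 1 had a median of -0.51, close to its own value. KCNAB1 was lower (-0.38 ± 0.12, adjusted p = 0.00983) and KCNMB4, the neuronal partner of KCNMA1, was lower near the threshold (-0.21 ± 0.08, adjusted p = 0.0352). The KCNMB4 call was lost without knockdown replicate 1 or 3 or control replicate 1 or 3, where the adjusted p was 0.0523 to 0.220. KCNAB3 had 5.93, 7.36 and 7.05 CPM in knockdown libraries, against 4.39, 4.99 and 6.21 CPM in control libraries. Its groups overlapped, and its call as higher (0.39 ± 0.14, adjusted p = 0.0288) was lost under 8 of the 14 alternatives that gave it a value, among them those without knockdown replicate 2 or 3 or control replicate 1 or 2 (adjusted p = 0.0706 to 0.169).

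Among 26 listed partners of these channels, such as scaffolds and pacemaker channels, 22 were tested, 1 was higher and 8 were lower, and the median log2 fold change was -0.08. As background for these counts and those of the pumps, 26.4% of all genes tested were higher and 25.3% lower. ANK3, which holds channels at the axon initial segment, was lower by edgeR (-0.38), as were CNTNAP2 (-0.23) and ADAM22 (-0.32), both part of the KCNA complex of axons. DLG1, a scaffold, was the 1 partner called as higher (0.19). Of the 11 tested pumps and cotransporters that make or use the potassium gradient, 5 were higher and 3 lower, with a median of -0.05. SLC12A4, a potassium-chloride cotransporter, was at 21.8 ± 1.02 CPM in knockdown and 13.2 ± 0.741 CPM in control (SD, n = 3 each), which is 0.73 on the log2 scale, and its relative SLC12A7 was also higher (0.40). The sodium pump subunit ATP1B1 was lower (-0.39).

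Some markers of other cell types also moved, and their part in the channel values was not tested. Beside the counts below, 26.4% of all genes tested were higher and 25.3% lower. The oligodendrocyte lineage list, with 5 of its genes tested, 1 higher and 2 lower, summed to 22.9 to 23.8 TPM in knockdown and 11.2 to 13.02 TPM in control. The pigment epithelium list, with 2 of 4 tested genes higher, summed to 11.9 to 13.01 TPM in knockdown and 4.17 to 5.49 TPM in control. The neural crest and mesenchyme list, with 1 of 2 tested genes higher, summed to 4.49 to 4.72 TPM in knockdown and 0.99 to 1.2 TPM in control. Endothelial markers were at 0.30 to 0.53 TPM in knockdown and 0.24 to 0.66 TPM in control, and none of them was abundant enough to test. The microglia list summed to 62.9 to 66.4 TPM in knockdown and 18.8 to 21.7 TPM in control, of which AIF1 was the 1 tested gene, and CSF1R stayed under 0.1 TPM in every library.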

How the data were processed

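For each library the authors deposited expected counts, FPKM, TPM and a scaled read count (a signal), as named in the file headers. Per the submitters' processing notes, reads were placed on hg38. Not given in the sources used here are the aligner, the counting tool and its strand use. Expected counts, of which 12.6 to 14.9% per library were not whole, were rounded to whole numbers. The deposited signal was not used, and the deposited FPKM served only to work out transcript lengths for genes of at least 50 counts and 0.5 FPKM in every library. The 2 single-cell libraries were not analysed here.

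Counts went into edgeR 4.0.16 under R 4.3.3 (TMM, filterByExpr with minimum count 10 and minimum total 15, robust quasi-likelihood F-test, and glmTreat against 1.5-fold). Benjamini-Hochberg adjustment ran over all 13468 genes tested, with a threshold of 0.05. Log2 fold changes are knockdown minus control. Lengths were tested with limma 3.58.1, as was log2(TPM + 1) where 3 libraries reached 1 TPM. The procedure was tried on simulated counts in which few genes changed and none of those had very low counts. That setting differs from these data, so it does not vouch for the calls reported here. A floor of 3 counts was 0.191 to 0.224 CPM and covers counting error only. Within groups, libraries differed beyond counting error (1.65 to 4.08 chi-square units per degree of freedom). The first principal component of the 6 libraries held 71.7% of the variance.

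Positions and promoters came from RefSeq on GRCh38.p14, which placed all 91 members. Named were FABP7, and in each class every member past 1.5-fold, up to 6 called members by smallest p and the 3 of highest mean TPM, and in the lists of partners and pumps up to 4 called by smallest p. KCNA2, KCNA4, KCNA5, KCNB2, KCNC4, KCND1, KCND2, KCND3, KCNF1, KCNG1, KCNH4, KCNQ3, KCNS3, KCNJ3, KCNJ11, KCNN2, KCNN3, ABCC9 and DLG1 were named after their values were seen. The members and lists were chosen with earlier results of these data known. Some members and listed genes enter the counts, medians and sums but are not reported here by name.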

Additional observations from a re-analysis of the deposited data

How the results depend on the processing

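Of the 28 channel genes called, 20 kept their call, 5 as higher and 15 as lower, under every alternative that gave them a value, out of 15. The other 8 lost it under at least 1 (among them KCNA2, KCNJ3, KCNMA1, KCNAB1, KCNAB3 and KCNMB4), and 0 changed direction. Scaling set part of the balance: of all called genes 51.1% were higher in the main setting, 37.7% with library totals and 20.6% on log2(TPM + 1), and of called channel genes 25% were higher in the main setting, 20.7% with library totals and 13.8% on log2(TPM + 1). The median over all genes was -0.07 with library totals. On log2(TPM + 1) and on log2(TPM + 0.1), 4 channel genes were higher and 25 lower of 50 tested, with 1 voltage-gated, 0 two-pore and 0 auxiliary genes higher and 0 calcium- or sodium-activated genes lower. On both scales 0 partners were higher, and 1 pump or cotransporter was higher and 6 were lower. KCNH2 and KCNJ4 became calls as lower on log2(TPM + 1) (limma adjusted p = 0.0222 and 0.0367). With library totals 0 auxiliary genes and 0 partners were higher, and 2 pumps were higher and 5 lower. The DESeq2 1.42.0 Wald test left 0 auxiliary genes higher and 3 lower, and 6 members higher and 17 lower in all. A filter of at least 10 CPM tested 21 members, so that fewer could be called: 3 were higher and 12 lower, with 1 higher and 1 lower past 1.5-fold. Under that filter 1 inward rectifier was higher and 1 lower, 0 two-pore genes were higher, and 0 auxiliary genes were higher and 2 lower.

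Leaving out 1 library at a time gave 6 to 7 members higher and 18 to 23 lower. The uncalled KCNH2 became a call as lower without control replicate 3, and KCNK10 without control replicate 2. Past 1.5-fold 1 to 2 were higher, since KCNJ8 was lost without knockdown replicate 1 or control replicate 3. Auxiliary genes higher numbered 0 to 1, two-pore genes lower 1 to 2, partners higher 0 to 2 and pumps higher 3 to 5. The uncalled KCNK2 turned to -0.047 on log2(TPM + 1) and -0.063 on log2(TPM + 0.1), and ranged from -0.077 to 0.35 over the fits without 1 library, where it was -0.02 without knockdown replicate 2 and -0.077 without control replicate 1. The uncalled KCNT2 was -0.024 with upper-quartile factors, -0.065 with library totals, -0.19 on log2(TPM + 1), -0.22 on log2(TPM + 0.1) and -0.014 with at least 10 CPM, and ranged from -0.078 to 0.081 without 1 library, at -0.04 without knockdown replicate 3. The cause of these moves was not tested.

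The replicate number as a block gave 7 members higher and 21 lower, and changed no call of a named gene. Same-numbered libraries showed little pairing: their deviations from the group means correlated at 0.0698, 0.0653 and 0.0393, none over 0.1. Knockdown replicates 1 and 2 correlated best with their same-numbered control replicates, and knockdown replicate 3 with control replicate 1 (0.0566). Values this small do not settle whether the libraries were paired. Leaving out members whose tested neighbours within 5 Mb had a median beyond 0.25 in size, such as KCNAB2, left 7 members higher and 19 lower. With no low-count filter all 91 members were tested, again with 7 higher and 21 lower, and none of the 31 left out of the main fit was called. Their counts were low, so differences in them may have gone undetected.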
